A study of Caenorhabditis elegans with 3 samples.

Results

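The genes described here encode 10 proteins of the centrosome and the kinetochore of the nematode Caenorhabditis elegans, measured in early young adult hermaphrodites. They are spd-2, spd-5, sas-4, zyg-1 and zyg-9 on the centrosome side and hcp-3, hcp-4, knl-1, bub-1 and bir-1 on the kinetochore side. A gene was included where the platform annotation gave a probe its symbol and the probe had a value on all arrays, and all 10 met this, among 15062 genes so measured. Each gene had 1 probe except zyg-9, which had 2.

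The series holds 3 2-colour DNA microarrays, each of 1 prep of hermaphrodites labelled TP07 YA 1, set against a mixed reference of wild-type mRNA. No source used here gives the strain of the worms, their exact age or the makeup of the reference, or says whether the preps came from separate cultures. The p-values thus cover only the spread among the preps, and that spread may be technical. Every value below is a log2 ratio of worms to reference, where 1 means a level 2-fold that of the reference, and an error is the SD over the 3 preps.

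The sign is likely worms over reference, since in the labels channel 1 holds the reference and channel 2 the worms. The adult cuticle collagen genes had positive ratios too, with col-19 at 2.60 ± 0.059 (n = 3). No source used here names the dye of each channel, and were the sign the other way, each direction given would turn round. Between 19742 and 19914 of 20000 probes had a value on an array, and the array medians ran from 0.0058 to 0.016. Prep 1 stood somewhat apart from the others: over the probes on all arrays it correlated with preps 2 and 3 at r = 0.80 and 0.77, against 0.91 between preps 2 and 3. With 3 arrays the precision is limited by their number, and no spot intensities were used here.

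The centrosome organises microtubules around a pair of centrioles, which recruit a surrounding protein matrix, the pericentriolar material. Kinetochores form on chromosomes and bind those microtubules. The chromosomes of C. elegans are holocentric, so the kinetochore forms along their whole length in mitosis. In adult hermaphrodites most somatic cells no longer divide, while germ cells divide in the distal gonad and oocytes store mRNA and protein for the divisions of the embryo. In whole worms, more cells of a type and more RNA per cell cannot be told apart.

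As a group these genes stood above the mixed reference. Of the 10 genes, 9 were above it at an adjusted p under 0.05 and 0 were below, also at an unadjusted p of 0.05, while bir-1 did not pass. Over all genes, 21.7% were above and 22.2% below by the same limma test. The median of the 10 mean log2 ratios was 0.79, or 1.72-fold, against 0.0021 over all genes. That median lay at 0.92 in prep 1, 1.07 in prep 2 and 0.84 in prep 3 when it was taken within each prep. The same 9 genes had a ratio above 0 on all arrays, which held for 33.2% of all genes. It also held for 3251 of the 3275 genes called above the reference, so it largely follows from the call. By size, 4 genes averaged at least 1, against 5.81% of all genes, 5 averaged between 0.5 and 1, and bir-1 was near 0.

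**Figure D1:**
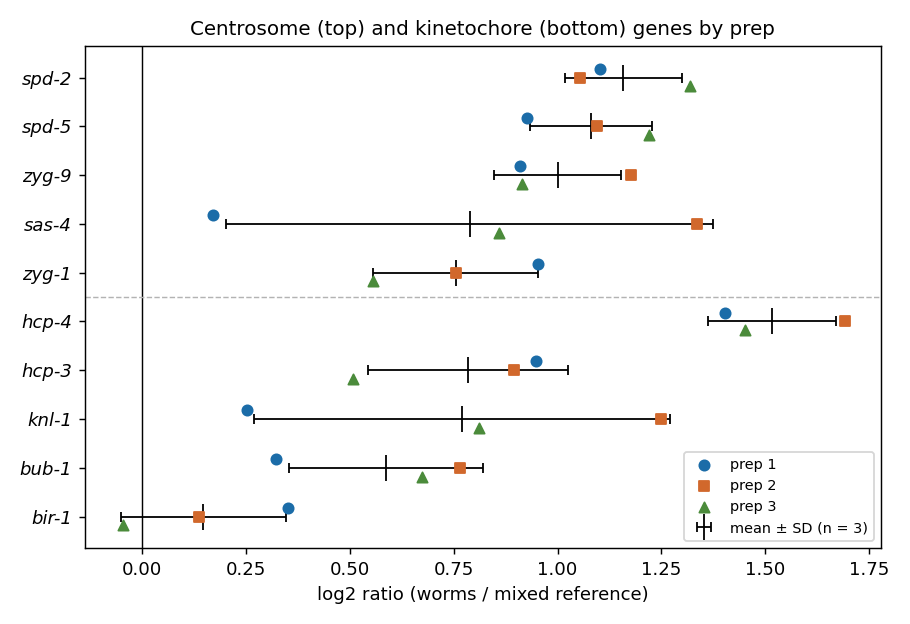
Log2 ratio of worms to mixed reference (horizontal axis) for each centrosome gene (above the dashed line) and kinetochore gene (below it) in preps 1, 2 and 3, with the mean and SD (n = 3). Every gene but bir-1 lies above 0 in all preps, hcp-4 is the highest, and sas-4 and knl-1 spread the most, with prep 1 low.

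The pericentriolar scaffold genes spd-2 and spd-5 had the highest ratios on the centrosome side. SPD-2 is a coiled-coil protein needed both for centriole duplication and for growth of the pericentriolar material. spd-2 was at 1.10, 1.05 and 1.32 in preps 1, 2 and 3. Its mean of 1.16 ± 0.14 (n = 3) corresponds to 2.23-fold the reference (adjusted p = 1.34e-04, limma). SPD-5 is the main building block of the matrix. spd-5 was at 0.93, 1.09 and 1.22, a mean of 1.08 ± 0.15 or 2.11-fold (adjusted p = 2.02e-04, limma). The 3 preps of each gene lay close together, and spd-2 and spd-5 overlapped, with a difference of 0.078 ± 0.11. Their probes lie 50 rows apart in the probe list, within the same block of 400 rows.

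Both genes of centriole assembly were above the reference, with unlike spread. ZYG-1, a kinase related to vertebrate PLK4, starts the building of a new centriole. zyg-1 was at 0.95, 0.76 and 0.56, a mean of 0.75 ± 0.20 or 1.69-fold (adjusted p = 0.00183, limma). SAS-4, related to vertebrate CPAP, adds microtubules to the new centriole. sas-4 was at 0.17, 1.34 and 0.86, a mean of 0.79 ± 0.59 or 1.73-fold (adjusted p = 0.0107, limma). zyg-1 was highest in prep 1 and sas-4 lowest there. The SD of sas-4 was the largest among the 10 genes, against a median SD of 0.20 for them and 0.22 for all genes. Without prep 2 the value of sas-4 was 0.51 and its call was lost (adjusted p = 0.0811, limma). It was also lost against a 1.2-fold margin in place of 0 (adjusted p = 0.0524), a stricter test by which 7 of the 10 genes and 13.1% of all genes were above the reference.

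The microtubule polymerase gene zyg-9 gave the only internal repeat among these genes. ZYG-9, of the XMAP215 family, acts at the centrosome to lengthen microtubules. The probes together were at 0.91, 1.18 and 0.91, a mean of 1.00 ± 0.15 or 2.00-fold (adjusted p = 3.19e-04, limma). Taken singly, the first probe read 1.22, 1.06 and 0.78, and the second 0.60, 1.29 and 1.05. The probe means of 1.02 ± 0.22 and 0.98 ± 0.35 were close, while in prep 1 the second was lower by 0.63 (a difference of −0.63, second minus first). In preps 2 and 3 it was higher by 0.23 and 0.26. Of 414 genes with 2 probes, 22.7% had a larger gap in prep 1, where the median gap was 0.29. The SD of the averaged gene is smaller than that of either probe, since the probes differ in opposite directions in prep 1 and in the other preps.

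On the kinetochore side, hcp-4 was the highest of the 10 genes. HCP-4 is the worm's CENP-C, which links centromeric chromatin to the outer kinetochore. hcp-4 was at 1.40, 1.69 and 1.45, a mean of 1.52 ± 0.15 or 2.86-fold (adjusted p = 2.99e-05, limma). Its ratio was higher than that of about 98.2% of all genes, and its lowest prep exceeded the highest prep of each of the other 9 genes.

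hcp-3 encodes CENP-A, the histone H3 variant that marks centromeric chromatin. hcp-3 was at 0.95, 0.90 and 0.51, a mean of 0.78 ± 0.24 or 1.72-fold (adjusted p = 0.00179, limma). Its paralog cpar-1, a second CENP-A-like gene, was at −0.059, 0.34 and 0.59, a mean of 0.29 ± 0.33 that did not pass (adjusted p = 0.165, limma). hcp-3 was highest in prep 1 and cpar-1 lowest there, so hcp-3 minus cpar-1 was 1.01, 0.56 and −0.079, on average 0.50 ± 0.55. The paralogs overlapped in their ranges and did not differ beyond that spread. Without prep 1, cpar-1 passed at 0.46 (adjusted p = 0.0125, limma). The genes are similar in sequence and may share signal on an array, which was not tested.

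KNL-1 is the outer kinetochore scaffold that binds the NDC-80 and MIS-12 complexes and recruits the checkpoint kinase BUB-1. knl-1 was at 0.25, 1.25 and 0.81, a mean of 0.77 ± 0.50 or 1.71-fold (adjusted p = 0.00776, limma). bub-1 was at 0.32, 0.76 and 0.67, a mean of 0.59 ± 0.23 or 1.50-fold (adjusted p = 0.00820, limma). Both were lowest in prep 1 and highest in prep 2. Both calls were lost without prep 2, at 0.53 for knl-1 (adjusted p = 0.0704) and 0.50 for bub-1 (adjusted p = 0.0939). bub-1 also missed the threshold without prep 3, at 0.54 (adjusted p = 0.0567, limma), and against the 1.2-fold margin (adjusted p = 0.0811).

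bir-1 was the exception. BIR-1, the worm's survivin, belongs to the chromosomal passenger complex, which brings the kinase AIR-2 to chromosomes and the spindle midzone. bir-1 was at 0.35, 0.14 and −0.047 in preps 1, 2 and 3, so prep 3 lay on the other side of 0. The mean was 0.15 ± 0.20 or 1.11-fold, with a 95% interval of −0.16 to 0.46 (adjusted p = 0.429, limma). Its ratio lay above 62.8% of all genes. The upper end of that interval lies below the means of the other 9 genes, the lowest of which is bub-1 at 0.59. The 95% interval of bub-1, 0.27 to 0.91, nevertheless overlaps that of bir-1. So do those of sas-4 (0.33 to 1.24), knl-1 (0.35 to 1.19) and zyg-1 (0.44 to 1.07). bir-2, its paralog with BIR domains, was above the reference at 0.84 ± 0.28 (adjusted p = 0.00147, limma), and bir-1 minus bir-2 was −0.70 ± 0.36, negative in all 3 preps.

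Set in order by mean log2 ratio, the genes ran hcp-4, spd-2, spd-5, zyg-9, sas-4, hcp-3, knl-1, zyg-1, bub-1 and bir-1. Of the 9 pairs of neighbours in that order, 2 differed by more than the SD of their difference over the preps. They were hcp-4 over spd-2, by 0.36 ± 0.26, and bub-1 over bir-1, by 0.44 ± 0.41 and in 2 of 3 preps. The middle of the order is not resolved: sas-4, hcp-3, knl-1 and zyg-1 lay between 0.75 and 0.79, and no pair of these 4 differed beyond its spread. sas-4 and knl-1 followed each other over the preps, with a difference of 0.018 ± 0.088, and so did hcp-3 and zyg-1, at 0.029 ± 0.099. Both pairs were picked after the values were seen, and each likeness rests on 3 preps. For a gene of one such pair against a gene of the other, the SD of the difference was at least 0.59. Of all 45 pairs, 19 had ranges over the preps that did not overlap, of which 9 involved hcp-4 and 5 others involved bir-1. These ratios compare each gene with its own level in the reference, so their order is not an order of mRNA levels.

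**Figure D2:**
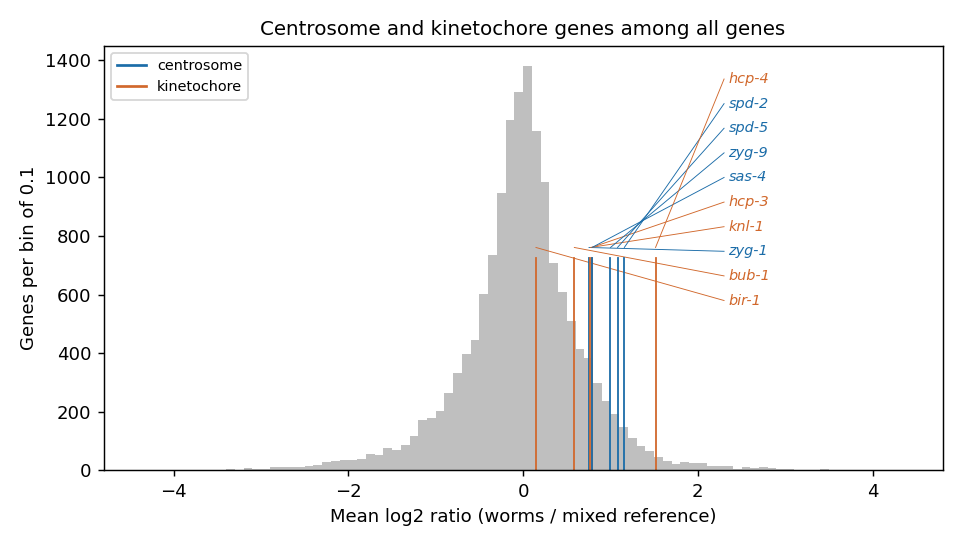
Histogram of the mean log2 ratio of worms to mixed reference over 15062 genes (grey, bins of 0.1), with a line for each centrosome gene (blue) and kinetochore gene (orange). All 10 lie right of 0, from bir-1 at 0.15 to hcp-4 at 1.52, and 6 lie in the top 10% of genes.

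The centrosome genes had a median of 1.00, with 5 of 5 above the reference, and the kinetochore genes one of 0.77, with 4 of 5 above. Within preps the centrosome median exceeded the kinetochore median by 0.58, 0.20 and 0.24. The classes overlapped, since hcp-4 was above and hcp-3 and knl-1 were within the range of the centrosome genes. No test was made between the classes, whose genes were chosen with earlier results known.

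The 10 genes did not vary alike over the preps. Prep 1 was the lowest prep for 6 of 10 genes, against 40.6% of the genes called above the reference. For sas-4 the ratio in prep 2 exceeded that in prep 1 by 1.17, a gap that 0.524% of all genes surpassed. For knl-1 it was 1.00, which 1.27% of genes surpassed, and for bub-1 0.44. zyg-1, hcp-3, bir-1 and spd-2 went the other way, with prep 2 lower than prep 1 by differences (prep 2 minus prep 1) of −0.20, −0.051, −0.21 and −0.046. The level of the arrays also varied along the probe list. The medians of 50 blocks of 400 neighbouring probes ran from −0.40 to 0.40 in prep 1, from −0.16 to 0.21 in prep 2 and from −0.25 to 0.35 in prep 3. With each block centred, sas-4 was at 0.20, 1.16 and 0.62, knl-1 was at 0.16, 1.12 and 0.62, and the 9 calls were kept. bir-1, in a block with medians below 0 in all preps, was then at 0.50, 0.20 and 0.092. In prep 1 that lay above sas-4, knl-1 and bub-1 (0.21). Before centring, bir-1 was above these genes in prep 1 too, at 0.35 against 0.17, 0.25 and 0.32. The block-centred mean of bir-1, 0.27, did not pass (adjusted p = 0.146, limma). Whether block medians follow position on the array or the genes that are listed together was not tested.

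**Figure D3:**
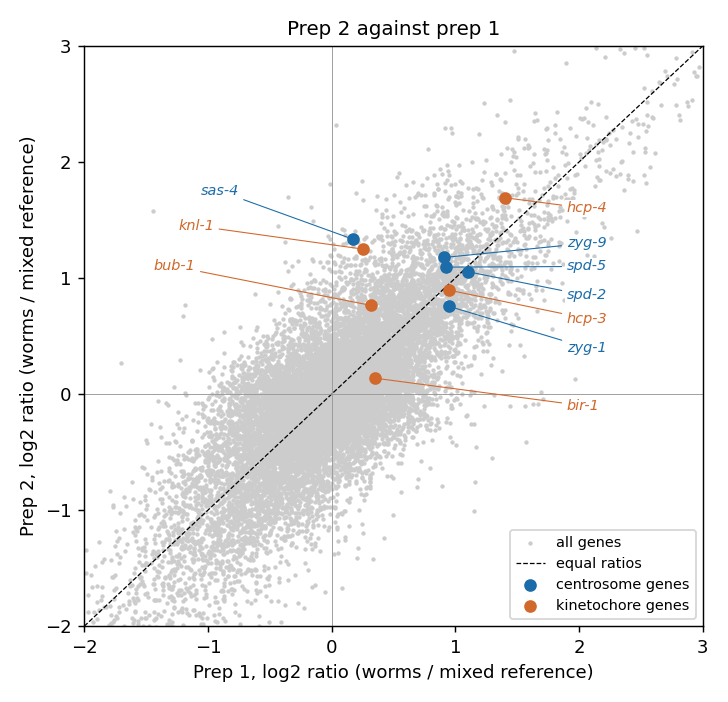
Log2 ratio in prep 2 (vertical axis) against prep 1 (horizontal axis) for all genes within the axes (grey dots) and the centrosome (blue) and kinetochore (orange) genes, with the line of equal ratios dashed. sas-4 and knl-1 lie 1.17 and 1.00 above that line, while zyg-1, hcp-3, bir-1 and spd-2 lie slightly below it.

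Other genes that work with these proteins were taken from 4 lists with 63 measured genes, none of them among the 10. Their median was 0.68, and 43 of the 63 (68.3%) passed above the reference, 1 below it and 19 not at all. The shares to set beside this and each list below are those of all genes, 21.7% above and 22.2% below. The lists were written with earlier results of these data known.

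Of 15 further centriole and pericentriolar genes, 12 passed above the reference and 3 did not pass, with a median of 0.72. SAS-5 and SAS-6 build the core of the new centriole under ZYG-1 and come before SAS-4. sas-5 was at 0.72 ± 0.19 (adjusted p = 0.00227, limma) and sas-6 at 0.80 ± 0.29 (adjusted p = 0.00205, limma), close to zyg-1 and sas-4. The kinase gene plk-1, whose product drives SPD-5 assembly, was at 0.87 ± 0.15. air-1, the worm's Aurora A gene, was at 0.52 ± 0.42 (adjusted p = 0.0324), a call lost without prep 2 or prep 3 and against the 1.2-fold margin. The highest were rsa-2, a SPD-5-binding regulator of spindle assembly, at 1.14 ± 0.36 and szy-20 at 1.06 ± 0.055. The lowest were tbg-1, which encodes gamma-tubulin, at 0.22 ± 0.25 (adjusted p = 0.261) and tac-1, whose product binds ZYG-9, at 0.25 ± 0.10 (adjusted p = 0.160), and neither passed. The partners zyg-9 and tac-1 thus had means of 1.00 and 0.25.

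The 19 further kinetochore and centromere genes had a median of 0.66, with 11 above the reference, 1 below it and 7 that did not pass. The highest were klp-19, a kinesin on chromosome arms and between meiotic chromosomes, at 1.99 ± 0.27 (adjusted p = 1.09e-05, limma) and hcp-1, a CENP-F-like gene, at 1.66 ± 0.26. The phosphatase gene gsp-2, a PP1 catalytic subunit, was below the reference at −0.85 ± 0.52 (adjusted p = 0.00526, limma). Of the complexes bound by KNL-1, knl-3 of the MIS-12 complex was at 0.66 ± 0.53 (adjusted p = 0.0193), a call lost without prep 2 or prep 3 and against the 1.2-fold margin. kbp-1 of the same complex was at −0.17 ± 0.20 and did not pass. ndc-80 was at 0.41 ± 0.39 (adjusted p = 0.0711), and passed without prep 1 at 0.62 (adjusted p = 0.00299) and after block centring (adjusted p = 0.0267). Several genes outside the rule for named genes were picked after their values were seen. Among these knl-2, which acts in loading CENP-A, was at 1.06 ± 0.25, and him-10, the worm's Nuf2, at 1.03 ± 0.17. spdl-1, a dynein adaptor at the kinetochore, was at 1.27 ± 0.13. kbp-3 of the NDC-80 complex, at 0.13 ± 0.19, and rod-1, of the complex that SPDL-1 works with, at 0.14 ± 0.20, did not pass. czw-1, of the same complex as rod-1, passed at 0.60 ± 0.014 (adjusted p = 0.00423, limma).

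Of 11 further genes of the spindle checkpoint, the passenger complex and the anaphase machinery, 4 were above and 7 did not pass, with a median of 0.37. Without prep 1, 8 of 11 were above, where the share over all genes was 25.5% in place of 21.7%. The highest were ify-1, the securin gene, at 1.08 ± 0.31 and fzy-1, the CDC20 gene, at 0.997 ± 0.19. The lowest were san-1, a checkpoint gene, at 0.0088 ± 0.14 (adjusted p = 0.965, limma) and csc-1 at −0.035 ± 0.24 (adjusted p = 0.870, limma). Neither of these passed, and both changed sign under some alternatives. CSC-1 and AIR-2 are partners of BIR-1 in the passenger complex. air-2 was at 0.30 ± 0.070 (adjusted p = 0.0891). Thus 0 of the 3 measured passenger genes passed, where 21.7% of all genes were above the reference. At an unadjusted p of 0.05, 1 of the 3 was above it, as were 3797 of all 15062 genes. With 3 genes such counts do not set the group apart from all genes. This grouping was made after the values were seen. Without prep 1, air-2 passed at 0.33 (adjusted p = 0.0471). Among checkpoint partners of BUB-1, also picked after the fact, bub-3 was at 0.37 ± 0.29 and mdf-1 at 0.056 ± 0.42, and neither passed.

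Of 18 spindle microtubule and motor genes, 16 were above and 2 did not pass, with a median of 0.80. The beta-tubulin gene tbb-1 was at 1.13 ± 0.57, with preps at 1.76, 0.96 and 0.66. mei-1, the katanin catalytic subunit needed for the oocyte meiotic spindle, was at 1.08 ± 0.25. lis-1 and dnc-2, both of the dynein pathway, were at 0.19 ± 0.10 and 0.051 ± 0.19 and did not pass. Tubulin genes resemble one another in sequence, so their single values may hold signal from relatives.

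**Figure D4:**
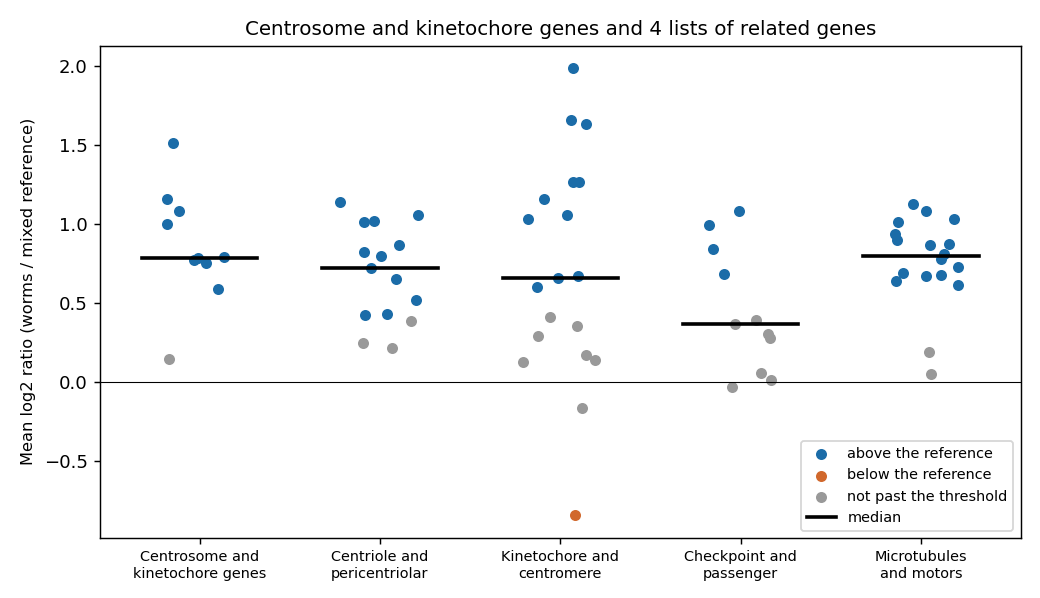
Mean log2 ratio of worms to mixed reference (vertical axis) for the 10 centrosome and kinetochore genes and for 4 lists of related genes, coloured by whether each gene passed the limma test above or below the reference, with the median of each column as a bar. The checkpoint and passenger list has the lowest median, 0.37, against 0.66 to 0.80 for the other lists and 0.79 for the 10 genes.

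Markers of germ cells and gametes also stood above the reference. Among all genes, 21.7% were above and 22.2% below. Of 7 measured germ line markers, 7 were above, with a median of 1.71, from htp-3 at 0.87 ± 0.36 to glh-1 at 2.52 ± 0.64. Their median was 2.13 in prep 1, 1.82 in prep 2 and 1.26 in prep 3, so the median was highest in prep 1. By gene, prep 1 was the highest for 5 of the 7 and the lowest for 2, htp-3 and pgl-3. Of 6 oocyte markers, 6 were above with a median of 1.27, though the call of oma-2 was lost without prep 2 or prep 3 and against the 1.2-fold margin. Of 6 sperm markers, 6 were above with a median of 2.95. Among 5 embryo markers 0 were above (0 at an unadjusted p of 0.05, limma) and 1 was below, with a median of 0.19. In prep 1, end-1 and end-3 were at 0.79 and 0.75, against −0.031 and −0.10 in prep 2 and 0.037 and −0.076 in prep 3. The other embryo markers showed no such gap: hlh-27 was at 0.37, 0.24 and 0.045 in preps 1, 2 and 3. tbx-35 was at 0.040, 0.062 and 0.10, and med-1 was below 0 throughout, at −0.46, −0.79 and −0.70. Since the makeup of the reference is unknown, such ratios do not show whether the worms held embryos. Muscle markers had 0 of 4 past the limma threshold and 0 at an unadjusted p of 0.05. Neuron markers had 3 of 4 below (unc-119 not without prep 2 or against the 1.2-fold margin), and male neuron markers 1 of 4 below. Counts of 0 or 1 among 4 or 5 markers are not far from the shares of all genes. The muscle marker myo-3 passed above after block centring at 0.39 (adjusted p = 0.0406, limma) and without prep 1 at 0.36 (adjusted p = 0.0336, limma). Also without prep 1, lov-1 and the intestine marker vit-6 passed above and the neuron marker snb-1 below. Of 4 intestine markers, 2 were above (vit-2 and ges-1) and 1 was below (elt-2), but each of these calls was lost without prep 2 and against the 1.2-fold margin. Those of vit-2 and elt-2 were also lost without prep 1, and that of elt-2 without prep 3 and after block centring too. The part of germ line and gamete content in the ratios of the 10 genes was not tested.

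By chromosome, 4 of the genes lie on I (spd-2, spd-5, hcp-4 and bub-1), 2 on II (zyg-1 and zyg-9), 3 on III (sas-4, knl-1 and hcp-3) and 1 on V (bir-1), and 0 on X. The median log2 ratio of all genes was 0.17 on I, 0.089 on II, 0.15 on III, −0.084 on V and −0.22 on X. The 9 called genes exceeded the median of their own chromosome by 0.41 (bub-1) to 1.34 (hcp-4), and bir-1 by 0.23. bir-1 is the gene on the chromosome with the lowest median among those that hold any of the 10.

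The genes with the most similar profile were sought by Euclidean distance over the 3 log2 ratios to the per-prep median of the 10 genes. The nearest 5 were eif-3.J, a translation initiation factor subunit gene, at a distance of 0.036, cec-6, a chromodomain gene, at 0.055, T05B9.1 at 0.058, dnj-22, a DnaJ domain gene, at 0.061 and F28A10.10 at 0.069. Their means lay between 0.91 and 0.96. The 10 genes themselves lay from 0.13 to 1.41 from that profile, farther than these neighbours. That was close to fixed in advance, since the neighbours were picked as the nearest among all genes outside the 10. With 3 arrays such likeness rests on few points.

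**Figure D5:**
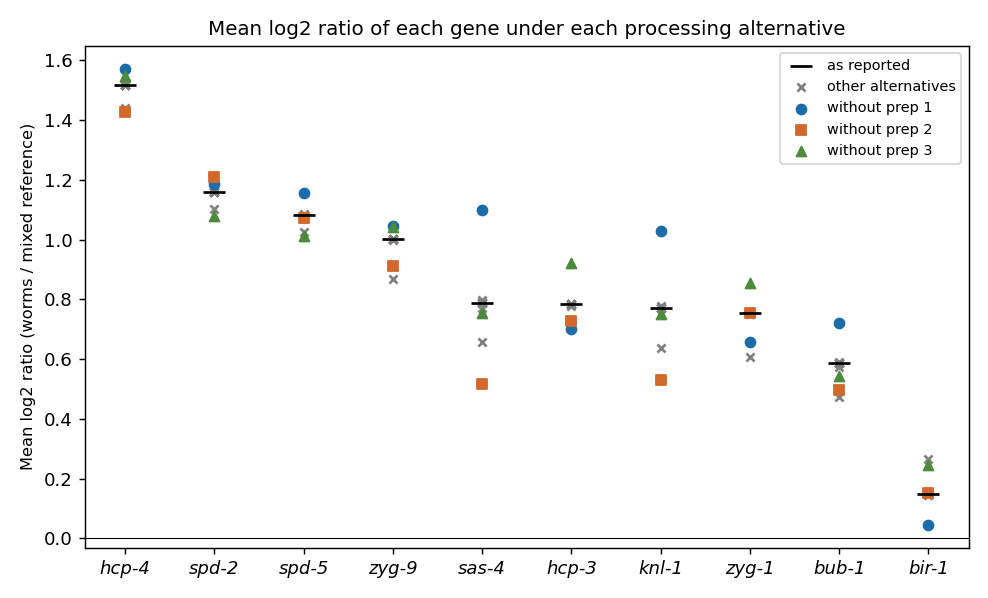
Mean log2 ratio of worms to mixed reference (vertical axis) of each gene as reported (bar), without each prep (coloured symbols) and under the other processing alternatives (grey crosses). Values of sas-4 ran from 0.51 to 1.10 and of knl-1 from 0.53 to 1.03, while hcp-4 stayed between 1.43 and 1.57, and all values lie above 0.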

How the data were processed

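RNA of 3 preps of early young adult hermaphrodites was compared with a mixed wild-type reference on 3 arrays, per the labels. The deposited values are log2 ratios, 1 for each probe on an array. The values themselves show the base. Ratios under 1, rebuilt with base 2 and counted in steps of 0.001, came out whole in 100% of cases (tolerance 0.01 steps), while base e gave 3.12% and base 10 gave 1.46%. No source used here gives the background correction, the normalization or the dyes. Of 20000 probes, 19664 had a value on all arrays. The platform annotation gave 15655 probes 1 symbol, 198 several and 4147 none. Probes of 1 symbol were averaged, giving 15062 genes. Chromosomes came from a table of WBcel235 genes, without coordinates.

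Each gene's mean was tested against 0 with limma 3.58.1 in R 4.3.3 (lmFit, eBayes, two-sided), with Benjamini-Hochberg adjustment over all genes at 0.05. The reference's own spread is not in this test. The steps were tested on simulated data. There, 18% of genes given a log2 change of 0.5 were called, and 100% of those given 1, 2 or 3. Of the unchanged genes, 8 were called. A gene that did not pass may thus still differ from the reference by a small amount. Alternatives were centring, scaling and quantile normalization of arrays, block centring, robust eBayes, a 1.2-fold margin, probes in place of genes (largest p of a gene's probes), probes on at least 2 arrays, and each prep left out.

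The genes and lists were chosen with earlier results of these data known. Named were the 10 genes, the 2 highest and 2 lowest of each related list, fixed partners and paralogs, and the 5 nearest profiles.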

Additional observations from a re-analysis of the deposited data

How the results depend on the processing

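Of the 10 genes, 9 were above the reference, and between 6 and 9 were when 1 prep was left out, the lowest count being without prep 2. The share of all genes above the reference moved too, to 25.5% without prep 1 (9 of the 10 genes), 15.1% without prep 2 (6) and 16.3% without prep 3 (8). Against a 1.2-fold margin 7 were above, where 13.1% of all genes were, and 0 were below under any alternative. The median of the 10 means ran from 0.74 to 1.04 with a prep left out. The counts for the checkpoint and passenger list ran from 4 to 8 with a prep left out. Over all genes, 3275 were above and 3347 below, against 1972 and 2085 with the 1.2-fold margin, which asks for a larger change by construction. The call or lack of call held under all 11 alternatives for spd-2, spd-5, zyg-1, zyg-9, hcp-3, hcp-4 and bir-1. Not all of these were equally able to change it. Robust eBayes, probes in place of genes and probes on at least 2 arrays left the means of these genes the same. They could change a call only through its p-value. With probes in place of genes, the adjusted p of zyg-9 went from 3.19e-04 to 0.00125 (limma). The 1.2-fold margin, being stricter, could not have made bir-1 pass. Values that changed sign were near 0 and passed in no case. With 1 prep left out, san-1 ran from −0.050 to 0.083, csc-1 from −0.16 to 0.078, dnc-2 from −0.057 to 0.108, unc-15 from −0.16 to 0.32 and cwp-1 from −0.10 to 0.072. After block centring san-1 was at −0.099, dnc-2 at −0.090 and unc-15 at −0.098. The cause was not tested. No paired analysis was possible because the series holds 1 group. No filter on dim spots could be made from ratios.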
